A study of Mus musculus with 3 samples.

Results

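Genes of fatty acid uptake and oxidation were examined in adult hearts labelled as lacking or carrying Lrrc10, the gene of leucine-rich repeat containing 10, a protein of heart muscle cells. The set held 35 mouse genes, chosen by name for their place in fatty acid uptake, activation, beta-oxidation or the PPAR-alpha response. All 35 were on the array, with 53 of its 41174 gene probes and 80 of its 43379 gene spots. Total RNA of hearts was compared on 3 whole-genome arrays with 2 colours, from C57/BL6 mice killed at 2 months of age that were fed ad libitum. On every array the Cy5 channel was labelled Lrrc10-/- (a germline knockout) and the Cy3 channel WT (Lrrc10+/+), and no array had the dyes exchanged. Each channel held RNA pooled from 2 hearts, and by the study's methods the 3 arrays were independent biological replicates with littermates as controls. The labels call the WT channel a heart reference pool, and whether each array had a WT pool of its own cannot be told from them.

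The deleted gene went against the channel labels. The processed signal of the Lrrc10 probe was 476, 443 and 352 in the channel labelled WT on replicates 1, 2 and 3. In the channel labelled Lrrc10-/- it was 14283, 20828 and 17703. The Lrrc10 ratio was therefore 5.37 ± 0.21 (SE, n = 3) on the log2 scale towards Cy5, and limma called it with an adjusted p of 0.00025. Each SE and interval given here is limma's, which draws a probe's spread towards that of probes of like signal. It can lie above or below the SE of the 3 arrays alone. Whether the channel labels are exchanged was not tested, and where this probe lies relative to the deleted part was not checked. Directions are given by channel, and a positive log2 ratio means a higher signal in Cy5, the channel labelled Lrrc10-/-. The median log2 ratio of all 20487 genes with an unsaturated probe was 0.005, 0.04 and -0.05 on the 3 arrays. Between 28942 and 30810 gene spots were well above background in a channel of an array. Arrays give no counts, so their number, 3, limits the precision, and a sign-flip test of 1 gene cannot go below an exact two-sided p of 0.25. In RNA of whole hearts, fewer cells of a type and less RNA per cell cannot be told apart.

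The adult heart draws most of its energy from fatty acids. Long-chain fatty acids are released from lipoproteins by lipoprotein lipase, cross the membrane with the help of CD36 and are carried in the cytosol by heart fatty acid binding protein. Acyl-CoA synthetases activate them, the carnitine shuttle moves the acyl groups into mitochondria, and beta-oxidation cuts them to acetyl-CoA. PPAR-alpha, a nuclear receptor that binds DNA together with RXR, raises transcription of many genes of this route when fatty acids are plentiful, as in fasting, and PGC-1alpha is its coactivator.

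Promoter sequence was set beside the set because nuclear receptors of this route bind DNA at copies of the motif AGGTCA. The RefSeq promoter table (GRCm38.p6, 250 bases before to 50 after a start) held 32 promoters for 29 of the 35 genes, and 32851 promoters in all. AGGTCA on either strand lay in 25.0% of the 32 promoters and in 16.3% of all promoters. The genes with a match were Acacb, Acadm, Acadvl, Acsl6, Cd36, Cpt1a, Echs1 and Ucp3. The direct repeat AGGTCANAGGTCA, the form that PPAR and RXR bind, contains the first motif and was in none of the 32 and in 0.0396% of all promoters. The form TCAAGGTCA, bound by the estrogen-related receptors, also contains it and was in 1 of the 32, that of Acsl6, and in 0.423% of all. The 250 bases before the start are shown for Ucp3 and Pdk4, whose ratios differed widely between the arrays, and for Acadm, whose ratios differed less. Capitals mark AGGTCA on either strand. In the Ucp3 window (chr7:100472741-100472990, plus strand) the matches begin 149 and 44 bases before the start. In the Acadm window (chr3:153944644-153944893, minus strand) the match begins 249 bases before it, and the Pdk4 window (chr6:5496279-5496528, minus strand) holds none.
Ucp3: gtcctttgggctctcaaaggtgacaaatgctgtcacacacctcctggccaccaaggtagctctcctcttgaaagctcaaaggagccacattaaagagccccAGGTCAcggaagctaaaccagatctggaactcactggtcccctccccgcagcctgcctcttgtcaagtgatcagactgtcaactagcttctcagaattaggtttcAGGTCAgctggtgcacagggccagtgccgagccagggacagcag
Pdk4: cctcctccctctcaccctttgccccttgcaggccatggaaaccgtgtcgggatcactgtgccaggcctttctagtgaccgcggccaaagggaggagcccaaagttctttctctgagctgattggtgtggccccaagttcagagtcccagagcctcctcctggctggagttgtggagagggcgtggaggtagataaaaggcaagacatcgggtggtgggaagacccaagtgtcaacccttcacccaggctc
Acadm: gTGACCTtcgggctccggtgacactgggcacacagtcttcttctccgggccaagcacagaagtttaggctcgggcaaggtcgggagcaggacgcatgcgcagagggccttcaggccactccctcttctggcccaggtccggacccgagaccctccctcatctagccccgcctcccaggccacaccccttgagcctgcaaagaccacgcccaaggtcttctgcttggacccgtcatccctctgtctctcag
A match in these windows describes the letters and was not tested as a binding site. Hadha and Hadhb, which encode the alpha and beta subunits of the mitochondrial trifunctional protein, start 273 bases apart on opposite strands of chromosome 5. The stretch that is upstream of both (chr5:30155003-30155230, plus strand) is shown because 1 sequence serves as promoter window to both genes.
Hadha and Hadhb: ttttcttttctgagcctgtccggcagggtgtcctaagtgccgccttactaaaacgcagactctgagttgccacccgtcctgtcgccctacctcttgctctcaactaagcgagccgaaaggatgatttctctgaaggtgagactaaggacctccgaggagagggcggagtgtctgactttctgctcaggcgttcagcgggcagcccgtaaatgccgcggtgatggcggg
It holds no AGGTCA.

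No gene of the set was called between the channels. Of the 53 probes, 52 had a mean processed signal of at least 20 and were tested. Limma on the 3 arrays called 0 of these 52 at an adjusted p under 0.05, against 2 of all 29576 probes tested (0.00676%), Lrrc10 among the latter. At an unadjusted limma p under 0.05 the set had 2 of its 46 unsaturated probes. They were a dimmer Acsl6 probe towards Cy5, where 1.55% of all unsaturated probes had such a p, and that of Acsl3 towards Cy3, where 1.42% had. The brightest Acsl6 probe, which describes the gene below, had an unadjusted limma p of 0.085. All 52 probes had an adjusted limma p of 1. The study selected probes by p, by signal and by a ratio that reached 1.2-fold in 1 direction on each array. Its text does not say which p was meant, and here the deposited p of each array, under 0.05 on all 3, was used. No probe of the set passed it towards Cy5, where 0.406% of all probes passed. Only that of Acsl3 passed towards Cy3, where 0.511% of all probes passed.

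The genes did not hold 1 direction across arrays. An unsaturated tested probe was available for 30 genes, and each is described by the brightest such probe. Their median log2 ratio was 0.37 on replicate 1, -0.41 on replicate 2 and 0.17 on replicate 3. On replicate 1, 27 of the 30 were higher in Cy5, against 50.5% of all genes. On replicate 2, 23 of the 30 were higher in Cy3, against 47.2% of all genes, and on replicate 3, 22 of the 30 were again higher in Cy5, against 44.2%. Of the 30 genes, 17 (56.7%) were above 0 on replicates 1 and 3 and below 0 on replicate 2, an order that 13.8% of all genes had. Among genes with a signal of at least 5000 it was the order of 15 of the 21 of the set and of 20.2% of all. Of the 30 genes, 3 (Acsl6, Etfa and Ppargc1a) were higher in Cy5 on every array, and 9.52% of all genes were. Only Acsl3 was higher in Cy3 on every array, and 11.9% of all genes were.

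**Figure D1:**
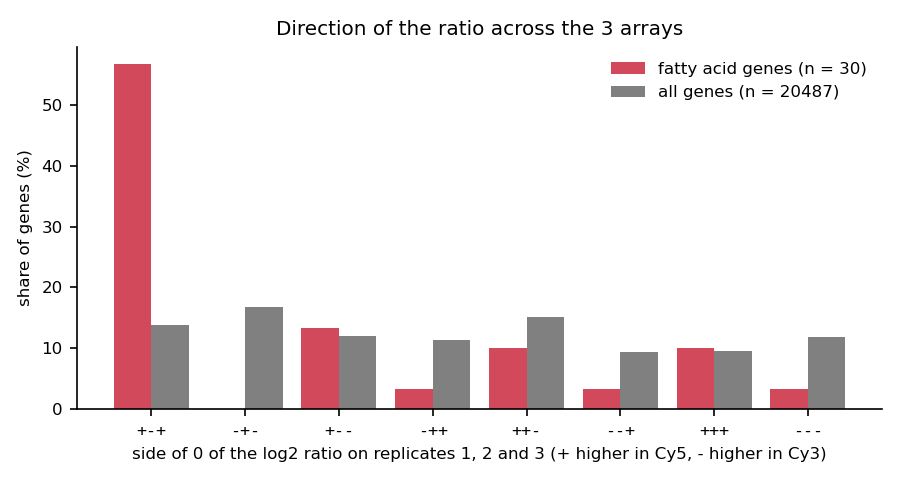
Share of genes in percent with each order of directions on replicates 1, 2 and 3, for the 30 fatty acid genes with an unsaturated probe (red) and for all 20487 such genes (grey). The order above, below and above 0 holds 56.7% of the fatty acid genes and 13.8% of all genes.

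The array software's own error model gave the same split within single arrays. On replicate 1, 13 of the 30 genes had an array p under 0.05 towards Cy5, where 12.5% of all genes did, and 1 gene, Acsl3, towards Cy3, where 12.7% did. On replicate 2, no gene of the set had one towards Cy5, where 20.5% of all genes did, and 15 of the 30 had one towards Cy3, where 17.2% did. On replicate 3 the counts were 9 towards Cy5, where 11.4% of all genes passed, and 3 towards Cy3, where 15.6% passed. These p values cover the error of 1 array and not the spread between hearts. The median SD of a gene's ratio between the 3 arrays was 0.56 over the set, 0.37 over all genes and 0.32 over the 3357 genes with a signal of at least 5000. Across the 30 genes the ratios of replicates 1 and 2 had a Pearson r of 0.05, those of 1 and 3 of -0.20 and those of 2 and 3 of less than 0.01 in size. The genes share the same 3 hybridizations, and r is a description.

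**Figure D2:**
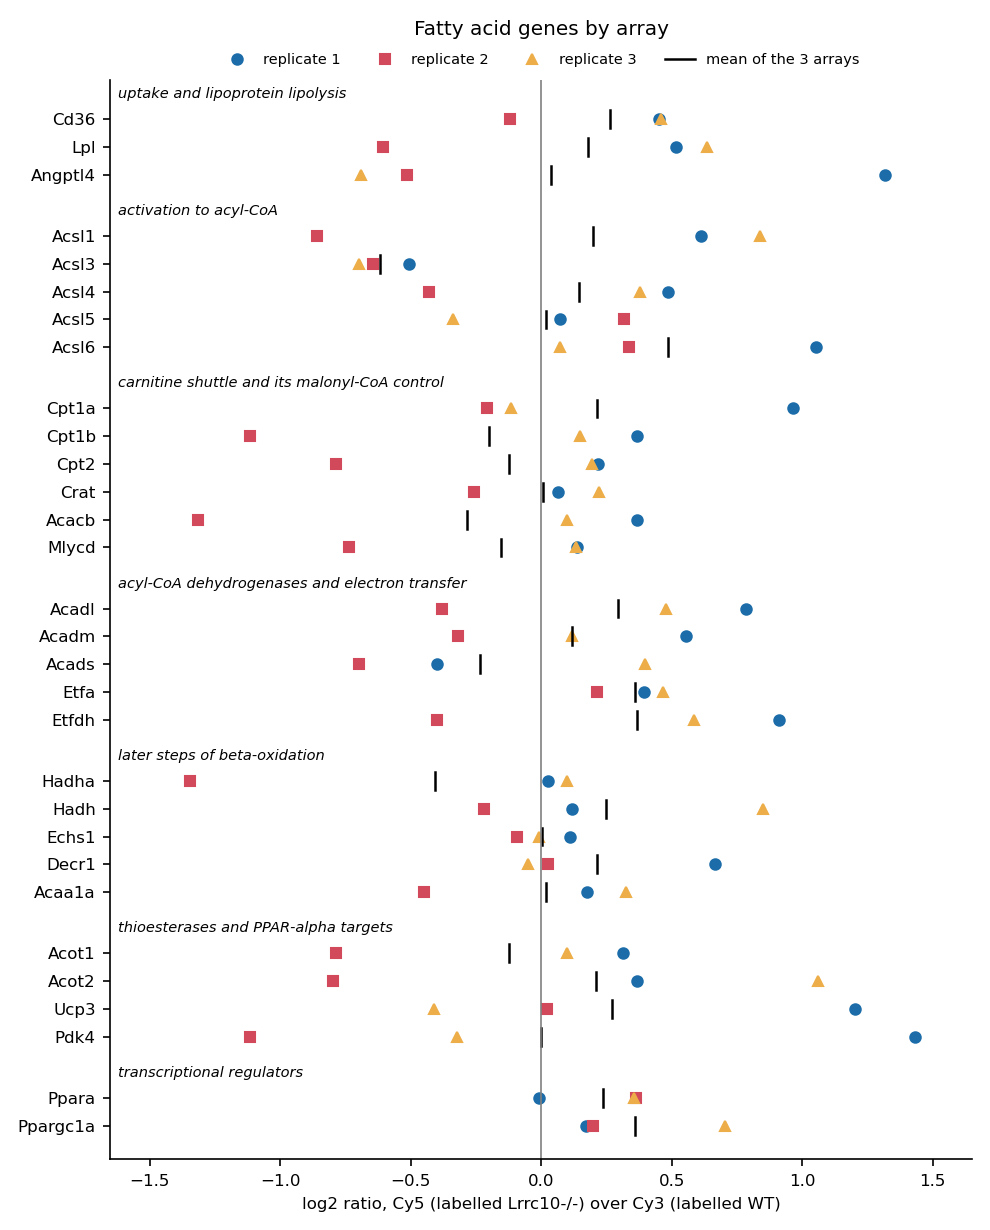
Log2 ratio of Cy5 over Cy3 (horizontal axis) for the 30 genes with an unsaturated probe, by role, with 1 symbol per array and a black line at the mean of the 3 arrays. Replicate 2 (red squares) lies left of 0 for 23 of the 30 genes, and replicate 1 (blue circles) right of 0 for 27.

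The signal of the set varied more in the channel labelled WT than in the channel labelled Lrrc10-/-. Each channel was centred on its median over all 20487 genes. The median SD of the set's log2 signal between arrays was then 0.52 in Cy3 and 0.19 in Cy5, and over all genes it was 0.37 in Cy3 and 0.22 in Cy5. A wider spread in Cy3 was not limited to the set, with 24 of the 30 genes (80.0%) and 77.0% of all genes having the larger SD there. Of the 30 fatty acid genes 25 (83.3%) had their highest Cy3 level on replicate 2, against 36.9% of all genes and 46.4% of those with a signal of at least 5000. In Cy5, 4 of the 30 were highest on replicate 2, against 23.5% of all genes. The median deviation from a gene's own mean Cy3 level was 0.42 on replicate 2 for the set and -0.002 for all genes, and -0.29 and -0.01 on replicate 1. Before dye normalization 25 of the 30 were again highest in Cy3 on replicate 2, against 35.6% of all genes.

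**Figure D3:**
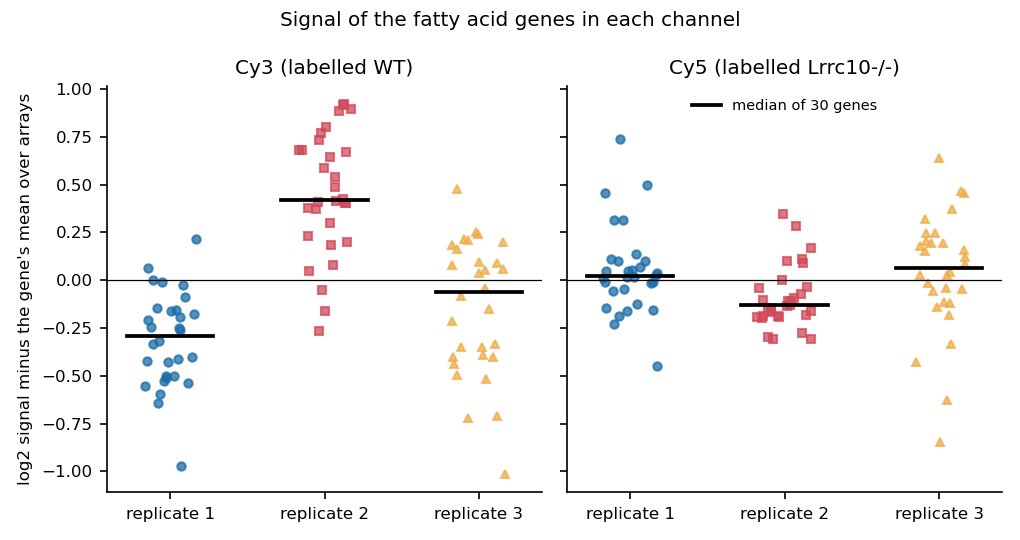
Log2 processed signal of each of the 30 genes on each array minus that gene's own mean over the 3 arrays, in the Cy3 channel (left) and the Cy5 channel (right), each channel centred on all genes, with the median as a black line. The Cy3 median is 0.42 on replicate 2 and -0.29 on replicate 1, and the Cy5 medians lie between -0.13 and 0.06.

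Uptake genes followed this order, apart from Angptl4. Cd36, the fatty acid translocase, had log2 ratios of 0.45, -0.12 and 0.46 on replicates 1, 2 and 3, a mean of 0.26 ± 0.20 (SE, n = 3). Lpl, lipoprotein lipase, had 0.52, -0.61 and 0.63 with its unsaturated probe, a mean of 0.18 ± 0.27. Replicate 2 was the low array for both, although a second Cd36 probe read 0.01 there. Angptl4, a PPAR target that inhibits lipoprotein lipase, had 1.32, -0.51 and -0.69, so only replicate 1 was above 0. Its mean was 0.04 ± 0.37 and its interval (95%, limma) -0.81 to 0.89. Fabp3, heart fatty acid binding protein, had no unsaturated probe.

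Among the long-chain acyl-CoA synthetases, Acsl3 and Acsl6 kept their direction on each array and Acsl1 did not. Acsl3 had log2 ratios of -0.51, -0.64 and -0.70, with a mean of -0.62 ± 0.21 (SE, n = 3) or 1.53-fold higher in Cy3. Its array p was 0.019, 0.0027 and 0.0013, its unadjusted limma p 0.020 and its interval (95%) -1.10 to -0.13. With normexp background correction and median centring the Acsl3 mean was -0.26 and no probe of the set passed the selection. Acsl6 had 1.05, 0.33 and 0.07, a mean of 0.49 ± 0.25, and 3 further probes of the gene had means from 0.30 to 0.72. On replicate 2 these 4 Acsl6 probes ranged from -0.73 to 0.33, and the lowest of them was not well above background throughout. Acsl1, the main isoform of heart muscle, had 0.61, -0.86 and 0.84, and its 3 probes shared their sign on each array. Its Cy3 signal was 62370 on replicate 1, 203830 on replicate 2 and 55067 on replicate 3. Its Cy5 signal was 95264, 112316 and 98472, a narrower range. Acsl4 had 0.48, -0.43 and 0.38, and Acsl5 0.07, 0.32 and -0.34. A dimmer second Acsl4 probe had -0.14, -0.42 and 0.12, and its mean was below 0.

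By their brightest probes, all 6 genes of the carnitine shuttle and its malonyl-CoA control were below 0 on replicate 2 and above 0 on replicate 1, as were 21 of the 30 genes of the set and 25.8% of all genes. Cpt1b, the muscle carnitine palmitoyltransferase of the outer membrane, had 0.37, -1.11 and 0.15, a mean of -0.20 ± 0.29, and its second probe had -0.28, -0.64 and 0.53. Acacb, which makes the malonyl-CoA that inhibits it, had 0.37, -1.32 and 0.10, with Cy3 signals of 23377, 81460 and 23484 and Cy5 signals of 30140, 32741 and 25141. A dim second Acacb probe, not well above background throughout, had -0.34, -0.59 and 1.02. Mlycd, which degrades malonyl-CoA, had 0.14, -0.74 and 0.13. Cpt2, the inner-membrane transferase, had 0.22, -0.79 and 0.20, a mean of -0.12 ± 0.25. Crat, carnitine acetyltransferase, spanned the least, from -0.26 to 0.22. Cpt1a, the liver-type isoform, had 0.97, -0.21 and -0.11.

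A Cpt1a probe and a Ppara probe were printed 10 times on each array, so the spread between spots can be set beside that between arrays. Errors that all spots of an array share, such as those of labelling, are not in the spread between spots. The 10 Cpt1a spots ran from 0.92 to 1.02 on replicate 1, from -0.25 to -0.15 on replicate 2 and from -0.21 to 0.02 on replicate 3. The spots of replicate 1 did not overlap those of the other arrays. The SD between spots was 0.033 to 0.073, and that between array means was 0.65. For Ppara the spots ran from -0.06 to 0.07, from 0.32 to 0.42 and from 0.30 to 0.43. Replicates 2 and 3 overlapped there, and replicate 1 lay apart. Over the 190 tested probes of the array printed 10 times, the median SD was 0.063 between spots and 0.35 between arrays. A second Cpt1a probe had 0.51, -0.73 and 0.18.

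**Figure D4:**
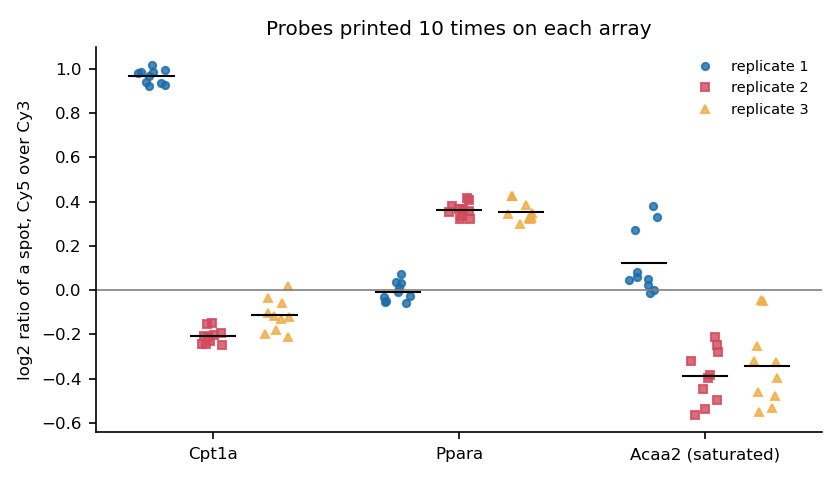
Log2 ratio of Cy5 over Cy3 of each of the 10 spots of the Cpt1a, Ppara and Acaa2 probes on each array, with a black line at the mean. Spots of 1 array cluster for Cpt1a and Ppara, and the Acaa2 probe, saturated in part, spreads more.

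Among the acyl-CoA dehydrogenases and their electron carriers, Etfa alone was above 0 on every array. Etfa, the alpha subunit of the electron transfer flavoprotein, had 0.39, 0.21 and 0.47, a mean of 0.36 ± 0.19 (SE, n = 3) with an interval of -0.08 to 0.79. Etfdh, which passes the electrons on to ubiquinone, had 0.91, -0.40 and 0.59, a mean of 0.37 ± 0.27, and a second probe had 0.56, -0.45 and 0.79. Acadm, the medium-chain dehydrogenase, had 0.56, -0.32 and 0.12, a mean of 0.12 ± 0.23. Acadl, the long-chain dehydrogenase, had 0.78, -0.38 and 0.48. Acads, the short-chain dehydrogenase, had -0.40, -0.70 and 0.40. Replicate 2 was the lowest array for each of these 5 genes. The Etfa probe, shown because its gene was above 0 on each array, reads through without a stop in 2 of the 3 frames.
Etfa: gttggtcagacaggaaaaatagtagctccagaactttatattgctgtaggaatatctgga

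In the later steps of beta-oxidation the probes of Hadha and those of Acaa1a disagreed, and those of Decr1 lay close together. Hadha had 0.03, -1.34 and 0.10 with its brightest probe and -0.92, 0.11 and 0.20 with another, so the array that stood apart changed with the probe. The signal was 7159 for the brightest Hadha probe and 757 for the other. Its mean was -0.41 ± 0.29 with the first. Echs1, the short-chain enoyl-CoA hydratase, varied least, with 0.11, -0.09 and -0.01, a mean of 0.003 ± 0.18 and an interval of -0.42 to 0.43. Hadh, the short-chain hydroxyacyl-CoA dehydrogenase, had 0.12, -0.22 and 0.85. Decr1, the dienoyl-CoA reductase, had 0.67, 0.03 and -0.05, and its second probe had 0.60, -0.07 and -0.17. Acaa1a, a peroxisomal thiolase, had 0.17, -0.45 and 0.33 with its brightest probe. A dimmer Acaa1a probe, A_52_P155990, had -0.35, 0.33 and 0.65. It shared its sign with the brightest probe on replicate 3 and differed in sign on replicates 1 and 2. Its sequence is shown because the direction of Acaa1a depended on the probe, and it is open in 1 of the 3 frames.
A_52_P155990: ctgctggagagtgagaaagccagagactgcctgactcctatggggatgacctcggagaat
Of the 12 genes with several unsaturated tested probes, 2 (Acsl1 and Etfdh) had probes that shared their sign on each array, and 8 had probes whose means shared a sign.

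Thioesterases and PPAR-alpha targets outside the oxidation spiral had the largest median SD between arrays of the 7 roles, 0.89. Pdk4, the pyruvate dehydrogenase kinase that holds back glucose oxidation, had 1.43, -1.11 and -0.32, the widest spread of the 30 genes (SD 1.30). Its Cy3 signal was 16567, 77583 and 32246, and its Cy5 signal 44674, 35853 and 25775. The Pdk4 mean was -0.002 ± 0.42 (limma SE, n = 3), with an interval of -0.97 to 0.97. This SE is smaller than that of the 3 arrays alone. Ucp3, the mitochondrial carrier of muscle, had 1.2, 0.02 and -0.41, a mean of 0.27 ± 0.31. By their brightest probes, 4 of the 30 genes (Pdk4, Angptl4, Cpt1a and Echs1) were above 0 on replicate 1 alone, as were 12.0% of all genes. Acot1, a cytosolic thioesterase, had 0.31, -0.79 and 0.10, a mean of -0.12 ± 0.24. Acot2, its mitochondrial relative 21641 bases away on chromosome 12, had 0.37, -0.80 and 1.06, a mean of 0.21 ± 0.33. Acot1 and Acot2 are close relatives, and their probes matched in at most 22 of 60 bases without a gap.

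Of the 2 regulators, Ppara was lowest on replicate 1, and the lowest array of Ppargc1a changed with the probe and the scaling. Ppara had -0.01, 0.36 and 0.35, a mean of 0.24 ± 0.19. Ppargc1a, which encodes PGC-1alpha, had 0.17, 0.20 and 0.70, a mean of 0.36 ± 0.19. Before dye normalization the same Ppargc1a probe had 0.23, 0.15 and 0.78. A second Ppargc1a probe had 0.00, -0.29 and 0.49 and was lowest on replicate 2. Of 10 PPAR-alpha targets of the set, 6 (Acadm, Acot1, Angptl4, Cpt1b, Pdk4 and Ucp3) were highest on replicate 1 and 4 (Acot2, Acsl1, Cd36 and Lpl) on replicate 3, as were 17 and 11 of the 30 genes of the set and 33.0% and 27.3% of all genes. A difference between regulators and enzymes was not tested, and 24 further regulators and PPAR targets had medians of 0.19, -0.07 and 0.14. No Ppara or Ppargc1a probe was called by limma.

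Probes saturated in some channel, 6 of the set, are given apart. Fabp3 was saturated in both channels on all 3 arrays, so it has no fold. Its deposited log2 ratios were -0.78, -0.41 and -0.37, while the ratio of its raw mean signals was 0.00 on each array. The same held for the 36 probes of the array that were saturated throughout, whose deposited ratios were all below 0, with means from -0.79 to -0.17. Acaa2, the mitochondrial thiolase, was saturated in some of its 10 spots in 5 of 6 channels, Etfb in 4, a second Lpl probe in 4, Acadvl in 3 and Hadhb in 1. Etfb had -0.66, -0.37 and -0.34, Acaa2 0.12, -0.39 and -0.34, and Acadvl 0.30, -0.60 and 0.07. Hadhb, saturated in Cy5 on replicate 3 alone, had 0.65, -0.55 and 0.18, against 0.03, -1.34 and 0.10 for Hadha.

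The size of the set's ratios and the direction of some of its named genes moved with the scaling of the arrays. With the deposited ratios the median of the 30 gene means was 0.13, against -0.01 for all genes. With normexp background correction and median centring in place of lowess it was 0.53, while the median of all genes moved to 0.17 and that of the 3357 genes with a signal of at least 5000 to 0.46. Bright genes thus moved up together, and the 21 genes of the set with such a signal had a median of 0.58. Under that scaling Cpt1b, Cpt2, Hadha, Acot1 and Pdk4 changed from below to above 0, and under the other scalings tried Angptl4 and Acadm changed to below 0. Replicate 2 was the lowest array there too, with medians of 0.70, -0.04 and 0.81 on replicates 1, 2 and 3.

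**Figure D5:**
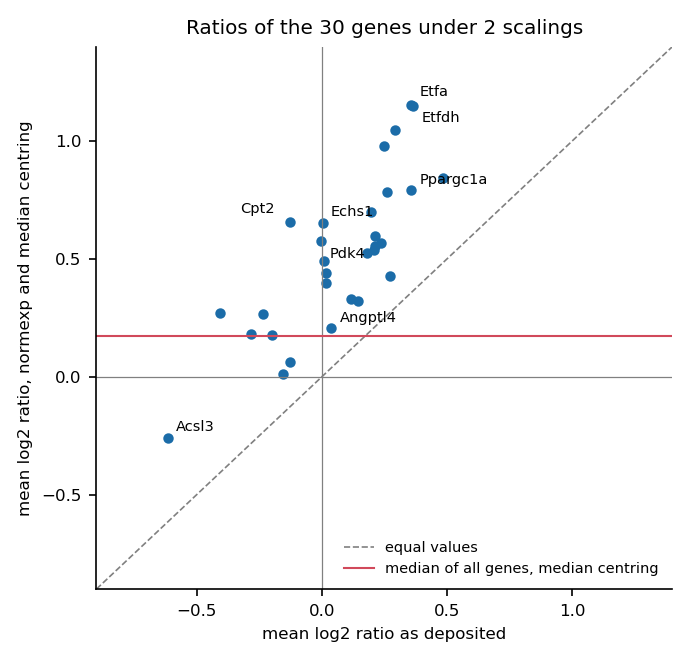
Mean log2 ratio of the 30 genes over the 3 arrays with the deposited lowess-normalized values (horizontal axis) and with normexp background correction and median centring (vertical axis). All 30 points lie above the dashed line of equal values, and the red line marks the median of all genes, 0.17.

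Other genes of the pathway and of fuel use were examined beside the set. Of 91 further fatty acid genes, 86 had an unsaturated tested probe, and limma called none in either direction. Their medians were 0.15, -0.20 and 0.04 on replicates 1, 2 and 3. The order differed within the list, where 7 genes of uptake and transport had medians of 0.01, -0.07 and -0.11 and 4 of the carnitine shuttle had -0.07, 0.06 and -0.21. Ucp2, a mitochondrial carrier, was the only one to pass the study's selection, with 0.50, 0.61 and 0.61, a mean of 0.57 towards Cy5. Bdh1, which interconverts ketone bodies, had 0.83, 0.39 and 0.90, a mean of 0.71. G0s2, an inhibitor of the lipase of lipid droplets, had 0.46, 1.11 and 0.35, a mean of 0.64, and Acot4 had 0.81, 1.67 and -0.67, a mean of 0.60. Of 40 genes of glycolysis and the citric acid cycle, 35 had such a probe and none was called, and their medians were 0.24, -0.41 and 0.30. Those of the set, 0.37, -0.41 and 0.17, were lowest on the same array as those of glycolysis and the citric acid cycle. The largest means of that list in size were those of Idh3a (0.59), Hk2 (0.47) and Pfkp (-0.42).

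Markers of other cells and of the clock moved between the arrays too, and their part in the values above was not tested. Of 10 adipocyte markers 8 had an unsaturated tested probe, with medians of 0.99, -0.18 and -0.92. Most of them were dim, with a median signal of 69. Of these 8, 7 were above 0 on replicate 1, 5 were below 0 on replicate 2 and all 8 were below 0 on replicate 3. Car3, with the largest mean, had 1.93, 0.18 and -0.86, and Fabp4, the brightest, had -0.45, 0.47 and -0.89. Of the 3 Fabp4 probes 2 were saturated and are not used here. Endothelial markers, 9 of 9, had medians of 0.17, -0.46 and -0.25, skeletal muscle markers, 9 of 10, of -0.10, 0.09 and -0.02, and macrophage markers, 6 of 6, of -0.16, 0.12 and 0.14. Of 10 cardiomyocyte markers 7 had a saturated probe, and the 4 with an unsaturated probe had medians of 0.02, -0.75 and 0.45. Liver markers were dim, with 3 of 7 tested, and Alb, albumin, passed the study's selection towards Cy3 with -3.04, -1.84 and -0.97. Of 14 clock genes, 11 had their smallest ratio in size on replicate 3 and 3 (Cry2, Nr1d1 and Per3) on replicate 2. The largest means in size were those of Ciart, with 4.29, 4.23 and 0.29, of Npas2, with -2.38, -4.22 and -0.07, and of Arntl, with -2.87, -2.82 and -0.29. The Npas2 probe was dim, with a signal of 24. Per3 passed the study's selection towards Cy5, with 1.48, 0.90 and 1.17. None of these genes was called by limma.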

How the data were processed

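Processed data of 3 2-colour arrays, 1 for each replicate, were used. The authors had scanned each array and run Agilent Feature Extraction 9.1.3.1, which subtracted local background and spatial trends, normalized the dyes by lowess within each array and deposited a log10 ratio of Cy5 over Cy3 per spot, with the p-value of that ratio on its array. The deposited intensity columns hold the mean, background-subtracted and processed signals. The series table repeats the log10 ratios.

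The log10 ratios were put on the log2 scale, outlier spots were left out, spots of a probe were averaged, and probes with a geometric mean processed signal over channels and arrays of at least 20 were kept (the study names a minimum of 20 without saying how it was taken). The ratio was tested against 0 with limma 3.58.1 (R 4.3.3, intensity trend, 2-sided) with Benjamini-Hochberg adjustment over all 29576 probes. The model was tested on simulated data. The study's selection was taken as a 1.2-fold ratio and a deposited p under 0.05 on each array, with the median p over spots. A gene was described by its brightest probe unsaturated in every channel, and saturated probes apart. Named genes were those past a call or the selection, on 1 side of 0 on all arrays with a mean of at least 0.3, among the 5 largest means, brightest of their role, or PPAR-alpha targets and regulators; of other lists, those past a call or the 3 largest means. Promoters came from RefSeq (GRCm38.p6). The sequence and ratios of a further probe of the set are not reported here. Members and lists were chosen with earlier results of these data known. Alternatives were normexp (offset 50) with loess or median centring, values before dye normalization, other filters, no intensity trend, a t-test, the series table and leaving out each array.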

Additional observations from a re-analysis of the deposited data

How the results depend on the processing

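Limma called no probe of the set under any of its alternatives, with 1 to 22 probes at an unadjusted p under 0.05, the 22 with normexp and median centring, where 9034 of all probes had such a p. Over all probes the count of 2 fell to 1 with normexp and loess, with a signal of at least 50 or with only probes well above background throughout, to 0 with no signal filter and to 0 with the methods' t-test. Leaving out 1 array gave 0 to 543, the highest without replicate 3. For the study's selection, leaving out 1 array gave 0 to 7 probes of the set towards Cy5, the 7 without replicate 2 (of Acadl, Etfdh, Cd36, Acsl1, Acsl6 and Lpl), where 573 of all probes passed, and 1 to 2 towards Cy3, with Angptl4 added without replicate 1, where 439 of all probes passed. With no array p it held 1 towards Cy5 (Acsl6), where 507 of all probes passed, and 3 towards Cy3 (Acsl3 and the saturated Fabp3 and Etfb), where 577 passed, and with normexp and median centring 0 towards Cy3.

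Genes above 0 on every array numbered 5 with normexp and loess, 13 with normexp and median centring and 4 to 20 with 1 array left out, the 20 without replicate 2. Of all 20487 genes 3312, 8724 and, without replicate 2, 4786 did so. Genes below 0 on every array numbered 2 with normexp and loess, 2 before dye normalization and 1 to 5 with 1 array left out, the 5 without replicate 1. Of all genes 3330, 3146 and, without replicate 1, 4896 did so. The set's median on replicate 3 moved to 0.81 with normexp and median centring. These 2 counts and the array medians were recomputed as alternatives chosen after seeing the data. The median over arrays, 0.13 with the deposited ratios, ran from -0.04 without replicate 1 to 0.53 with normexp and median centring. No alternative moved it by more than the SD of the 3 array medians, 0.41, which is larger than the median itself.

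No named gene was called under any alternative, the adjusted p going down to 0.069. Direction changed in 27 of 247 recomputed means, all under another scaling or with 1 array left out. The filters, the omission of saturated probes and the series table leave a gene's mean unchanged. So do the fit with no intensity trend and the t-test. Many of the 247 means could therefore not change direction. With normexp and loess the changed means were Angptl4 at -0.21, Cpt2 at 0.20, Acadm at -0.15 and Pdk4 at 0.12. With normexp and median centring they were Cpt1b at 0.18, Cpt2 at 0.66, Hadha at 0.27, Acot1 at 0.064 and Pdk4 at 0.58. Before dye normalization they were Angptl4 at -0.24, Cpt2 at 0.21, Acadm at -0.12 and Pdk4 at 0.13. With 1 array left out, means ranged from -0.046 to 0.57 for Lpl, -0.60 to 0.40 for Angptl4, -0.12 to 0.72 for Acsl1, -0.48 to 0.26 for Cpt1b, -0.29 to 0.21 for Cpt2, -0.10 to 0.34 for Acadm, -0.66 to 0.064 for Hadha, -0.050 to 0.051 for Echs1, -0.34 to 0.21 for Acot1, -0.22 to 0.71 for Acot2, -0.19 to 0.61 for Ucp3 and -0.72 to 0.55 for Pdk4. Etfa, Etfdh, Cd36, Acsl3, Acsl6, Ppara and Ppargc1a kept their direction under every alternative, but their means moved, from 0.30 to 1.16 for Etfa, 0.094 to 1.15 for Etfdh, 0.16 to 0.78 for Cd36, -0.86 to -0.26 for Acsl3, 0.20 to 0.84 for Acsl6, 0.17 to 0.57 for Ppara and 0.18 to 0.79 for Ppargc1a. The lowest means of Etfdh and Acsl6 were those without replicate 1. The cause of these changes was not tested. Leaving out 1 array leaves 2, and the number of arrays limits each of these values.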
